A study of Felis catus with 15 samples.

Results

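The transcripts described here are those of the heat shock and J-domain chaperone genes, followed through explant culture of the cat epididymis and exposure to extracellular vesicles. They were chosen by symbol: HSPA, HSPB, HSPD, HSPE, HSPH, DNAJA, DNAJB or DNAJC followed by a number, together with HSP90AA1, HSP90AB1 and CRYAB. This choice was made with earlier results of these data known. The choice left out HSPA5, DNAJB9, DNAJB11 and DNAJC3, 4 genes of the endoplasmic reticulum. Of the 38995 genes in the count table, 63 met this rule, and 55 of them had counts high enough to be tested. The set was proposed as one lying outside the endoplasmic reticulum. That description does not hold for all of it, since 8 of the kept genes (HSPA13, DNAJB12, DNAJB14, DNAJC1, DNAJC10, DNAJC14, DNAJC16 and DNAJC18) encode proteins of that compartment, and they are described as a group of their own.

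Chaperones bind unfolded or partly folded proteins and help them reach or keep their shape. HSP70 proteins do this in cycles of ATP hydrolysis that are started by J-domain proteins (the DNAJA, DNAJB and DNAJC families) and completed by nucleotide exchange factors such as the HSP110 proteins, while HSP90 finishes the folding of kinases and hormone receptors, small heat shock proteins hold aggregating proteins, and HSPD1 encloses proteins in mitochondria. Heat shock factor 1 raises the transcription of many of these genes under stress. The epididymal epithelium secretes large amounts of protein into the duct in which sperm mature, and several chaperone genes of these families are mainly expressed in male germ cells.

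The tissue was the corpus epididymis of domestic cats (Felis catus), which lies between the caput and the cauda, and its RNA was sequenced. There were 3 groups of 5 libraries: fresh tissue, corpus explants in culture without added vesicles (culture), and corpus explants cultured with vesicles from the caput, the region upstream (culture with vesicles). Both cultured groups share explant culture, and the series asks what the vesicles add to it. A code in the labels marks fresh tissue D0 and both cultures D3, with no meaning given in the sources used here. Age, number of animals and vesicle dose are not given either, nor is it stated that replicates are separate animals, so p-values measure only the spread between these samples.

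Library totals ran from 17751507 to 24841100 counts for fresh tissue, from 19308190 to 25454399 for culture and from 17308832 to 27420218 when vesicles were present. Among the libraries, 2 stood apart in ways that touch the chaperone genes. Culture 3 had 0.179% of its counts in the 13 mitochondrial protein genes, against 6.23% to 7.48% in the other cultures, and lay alone on the second principal component, which held 9.34% of the variance. It was the lowest culture for 25 of the 55 tested genes (45.5%, against 38.7% of all genes tested) and the highest for 15 (27.3%, against 32.5%). Fresh 4 was the highest fresh library for 16 of the 55 (29.1%, against 21.8% of all genes tested), among them HSPA8, DNAJB1, HSPB1, HSPB8 and HSP90AA1. Replicate 4 of culture with vesicles was the highest of its group for 18 (32.7%, against 25.0%). Large departures were no more common in these genes than in all genes. Fresh 4 was over 1.5 times the median of its group's other libraries for 7.27% of them, against 8.74% of all genes. For culture 3 this was 18.2%, against 27.4%. Calls in culture against fresh tissue that changed when either library was left out are stated beside the gene.

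Cell type markers differed between fresh tissue and both cultures. The 10 markers of principal cells, the main secretory cells of the duct, summed to 24874 to 33296 CPM in fresh tissue and to 1037 to 3263 CPM in culture. Of the 9 that were tested, 8 fell in culture and 1 rose, and SLC9A3 was at 0 in every culture library. Basal cell markers summed to 1142 to 1605 CPM in fresh tissue and 3417 to 9660 CPM in culture, and of 11 tested 10 rose and 1 fell. These are bulk samples, in which fewer cells of a type and less RNA per cell cannot be told apart. The part of these marker changes in the chaperone results was not tested.

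Levels are CPM, counts per 1000000 of each library's effective size, and libraries are listed in the order of their replicate numbers. Fold changes are log2 values with their standard error (SE) from edgeR's quasi-likelihood test, and a gene was called where its p, adjusted by Benjamini-Hochberg over the 18038 genes tested, was under 0.05. In culture against fresh tissue, 15 of the 55 chaperone genes rose, 13 fell and 27 were not called. The share called, 50.9%, was near the 54.3% of all genes called in this comparison (28.7% higher and 25.6% lower), so the number of changes is not a feature of these genes. Their median log2 fold change was 0.10, beside 0.04 for all genes. The 5 culture values did not overlap the 5 fresh values for 20 of the 55 (36.4%, against 40.5% of all genes). Without culture 3, 35 of 56 chaperone genes then tested were called (62.5%, HSPB3 among them), and without culture 3 and fresh 4 together 34 of 55 (61.8%), beside 59.9% and 58.2% of all genes. Taken without the 8 genes of the endoplasmic reticulum, 13 of 47 rose and 10 fell.

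**Figure D1:**
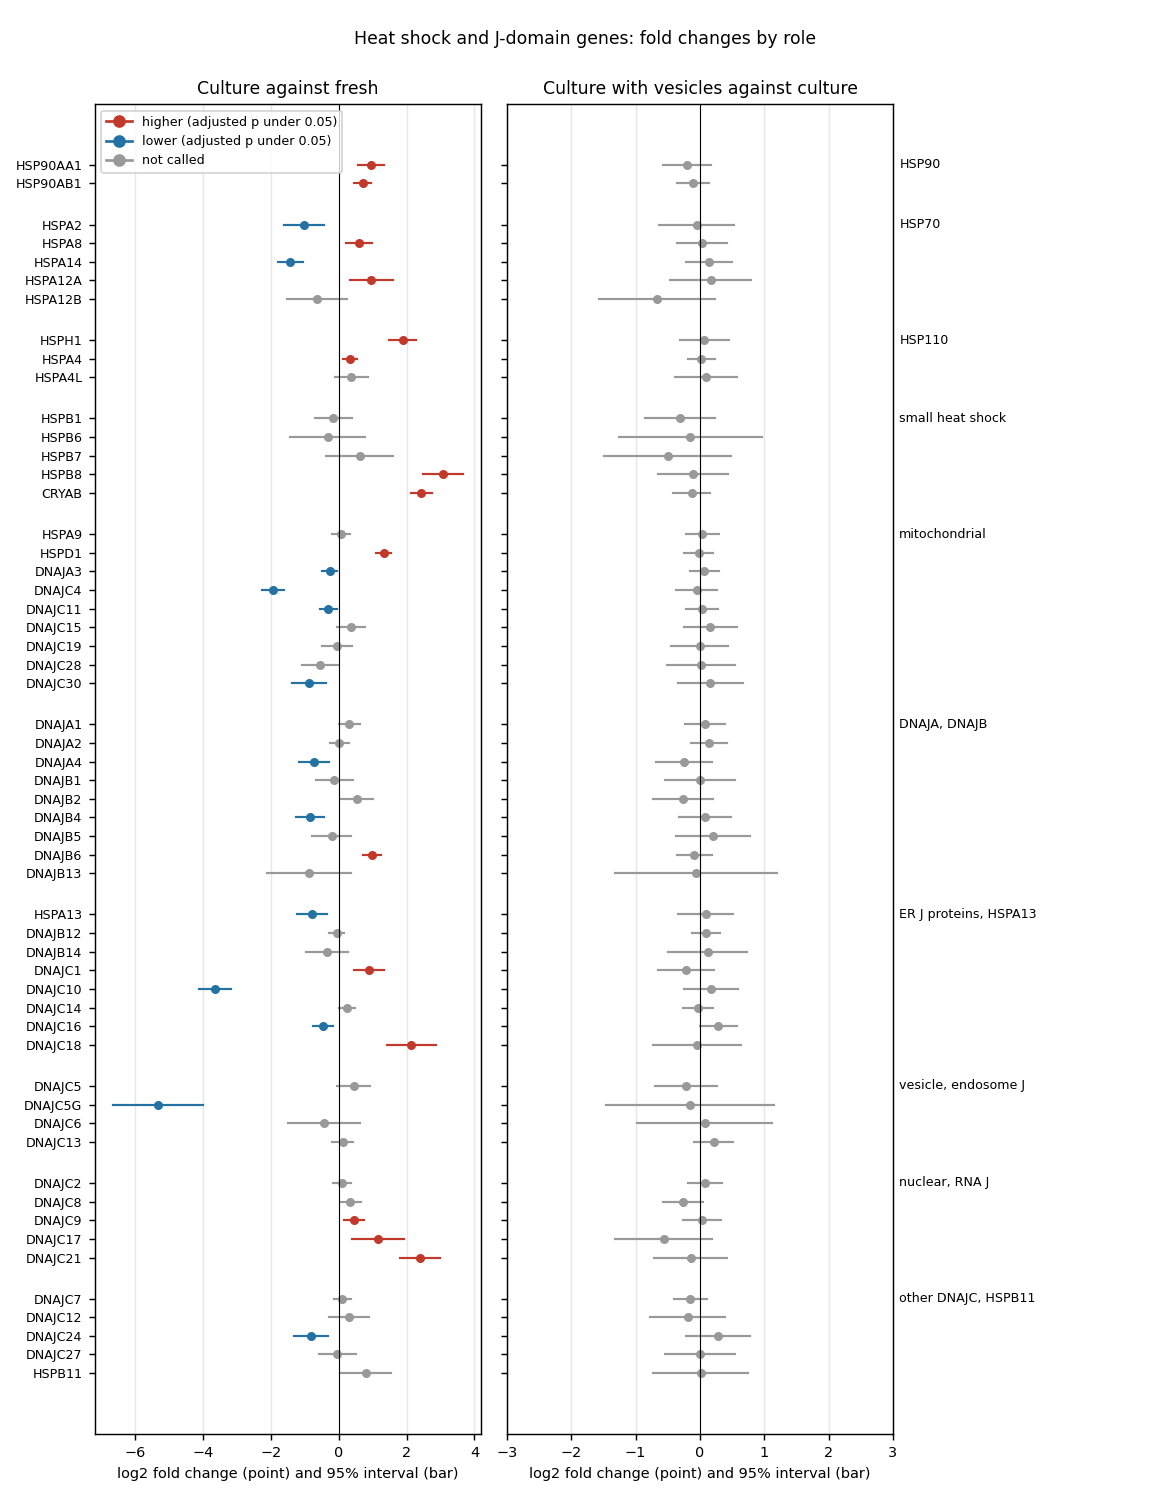
Log2 fold changes (points) with approximate 95% intervals (bars) of the 55 tested genes, grouped by role, for culture against fresh tissue (left) and culture with vesicles against culture (right); red and blue mark genes called higher and lower, grey those not called. On the left 28 genes are coloured and span -5.34 (DNAJC5G) to 3.08 (HSPB8), and on the right all 55 are grey and lie between -0.67 and 0.29.

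The forest plot of fold changes shows that called genes went both ways in 4 of the 10 role groups (HSP70, mitochondrial, DNAJA and DNAJB, and endoplasmic reticulum). In the other 6 they went 1 way. The median size of the log2 fold change was 0.56 for the 55 genes, smaller than the 0.78 for all genes tested. Folds of more than 2 were called for 12 genes, and the share of all genes with such folds was not counted. Those that rose were HSPH1, CRYAB, HSPB8, HSPD1, DNAJC18, DNAJC17 and DNAJC21, and those that fell were HSPA2, HSPA14, DNAJC4, DNAJC10 and DNAJC5G.

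**Figure D2:**
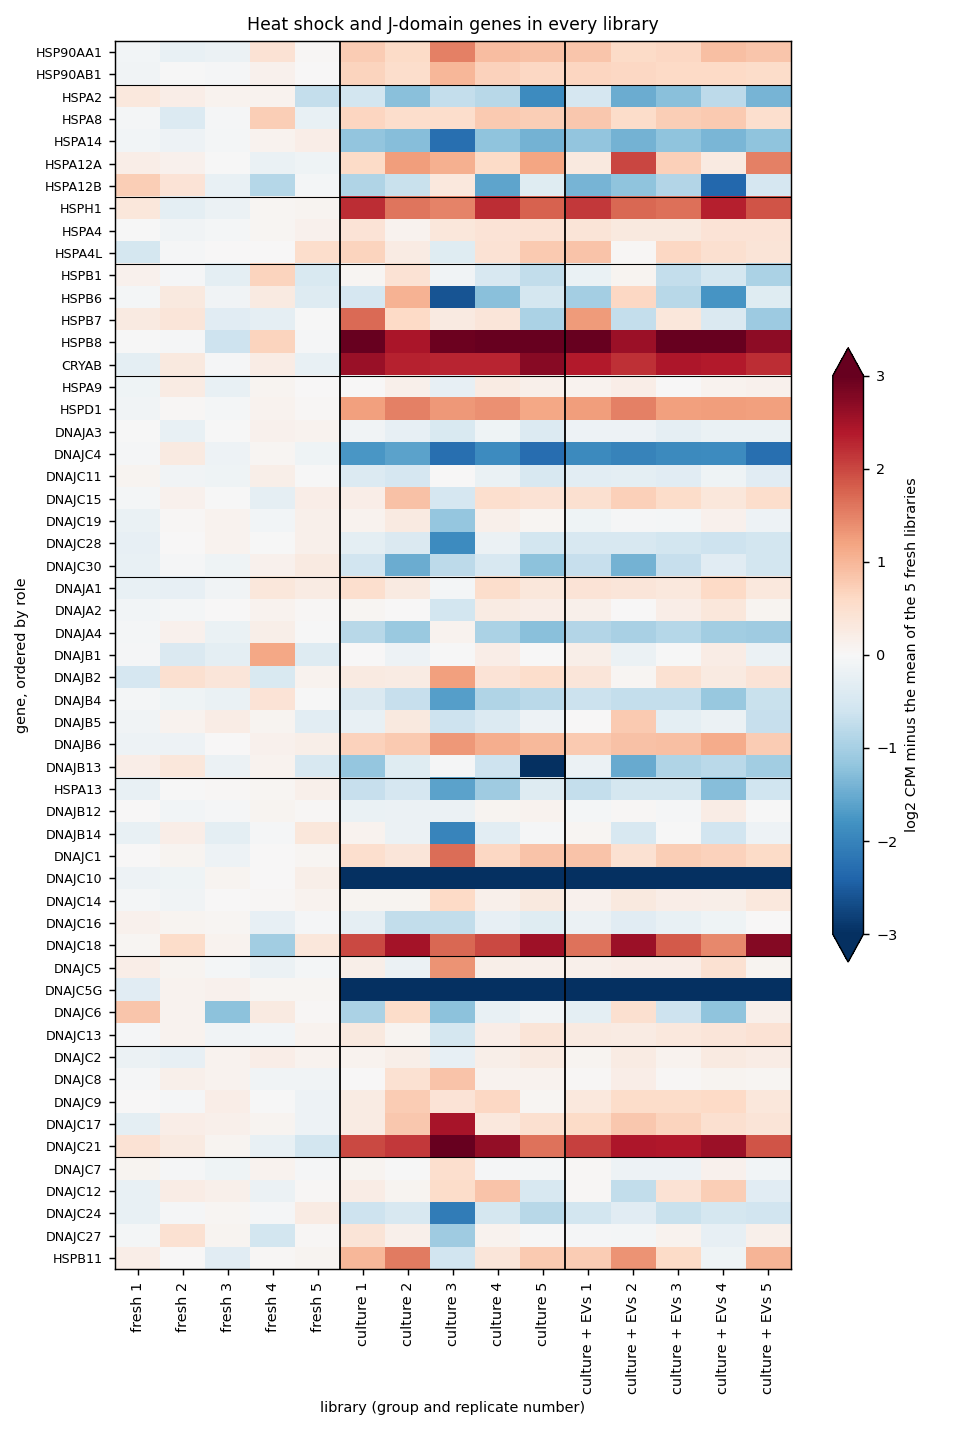
Each row is 1 of the 55 tested genes and each column 1 of the 15 libraries, coloured by log2 CPM minus the mean of the 5 fresh libraries (scale limited to -3 and 3). HSPB8, CRYAB, HSPH1 and DNAJC21 are red and DNAJC10 and DNAJC5G dark blue in all 10 cultured libraries, and culture 3 differs from the other cultures in genes such as DNAJC17 and HSPB6.

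The cytosolic HSP90 genes both rose in culture. HSP90AA1, the stress-inducible form, was at 432, 395, 406, 617 and 466 CPM in fresh libraries 1 to 5, at 771, 681, 1298, 862 and 837 in the cultures and at 816, 680.4, 700.1, 859 and 808 in the cultures with vesicles. Every culture value lay above every fresh value, with culture 3 the highest culture and fresh 4 the highest fresh library. It had a log2 fold change of 0.94 ± 0.18 (SE; adjusted p = 0.000391), and 0.78 without culture 3. HSP90AB1, the constitutive form, was at 796, 858, 835, 946 and 866 CPM in fresh libraries 1 to 5, at 1355, 1235, 1713, 1378 and 1325 in the cultures and at 1338, 1316, 1298, 1304 and 1251 in the cultures with vesicles. Its groups did not overlap either, and its log2 fold change was 0.70 ± 0.12 (adjusted p = 0.000114). In the gene table used for names, the span of HSP90AA1 overlaps another protein-coding gene. How reads that match several genes were counted is not given, so values of similar family copies such as these, HSPA8 and HSPA2 are uncertain.

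In the HSP70 group, 2 of 5 tested genes rose, 2 fell and 1 was not called. HSPA1A, HSPA1B, HSPA1L and HSPA6 had no entry under those symbols, so the group does not cover them. HSPA8, the constitutive HSC70 that also strips clathrin from vesicles, was at 605, 476, 617, 1046 and 538 CPM in fresh libraries 1 to 5, at 991, 908, 915, 1083 and 1051 in the cultures and at 1111, 925, 1044, 1087 and 898 in the cultures with vesicles. Fresh 4 lay within the range of the cultures, and the other 4 fresh libraries lay below all of them. Its log2 fold change was 0.59 ± 0.18 (adjusted p = 0.0125), and 0.83 without fresh 4 (adjusted p = 0.000141). HSPA14, an HSP70-like protein that works at the ribosome with DNAJC2, fell. It was at 98.3, 93.6, 100.3, 113 and 121 CPM in fresh libraries 1 to 5, at 45.9, 43.0, 21.8, 45.1 and 39.1 in the cultures and at 45.8, 38.9, 45.0, 40.6 and 45.3 in the cultures with vesicles. The groups did not overlap, culture 3 was the lowest of the cultures, and the log2 fold change was -1.43 ± 0.17 (adjusted p = 5.58e-06), or -1.27 without culture 3. HSPA14 also overlaps a protein-coding gene.

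HSPA2, a testis-enriched HSP70 of spermatogenic cells, also fell. It was at 24.9, 23.0, 21.6, 21.5 and 12.2 CPM in fresh libraries 1 to 5, at 13.6, 8.41, 12.2, 11.2 and 5.32 in the cultures and at 14.2, 7.08, 8.38, 11.7 and 7.55 in the cultures with vesicles. Fresh 5 lay within the range of the cultures and the other 4 fresh libraries above it. Its log2 fold change was -1.02 ± 0.27 (adjusted p = 0.00525). Sperm and late germ cell markers mostly fell as well: of 8 tested, 7 fell and 1 rose, and the 13 in the table summed to 59.8 to 127 CPM in fresh tissue and 43.7 to 75.6 CPM in culture, where AKAP4 and CAPZA3 were at 0 in every library. Their part in the result for HSPA2 was not tested. HSPA12B, an atypical HSP70 known from endothelium, was at 5.75, 4.54, 2.90, 1.85 and 3.25 CPM in fresh libraries 1 to 5, at 1.77, 2.10, 4.26, 1.08 and 2.64 in the cultures and at 1.25, 1.43, 1.82, 0.590 and 2.37 in the cultures with vesicles. The groups overlapped, and its log2 fold change of -0.63 ± 0.42 was not called (adjusted p = 0.214). With culture 3 and fresh 4 left out it was -1.11 (adjusted p = 0.0298). The remaining gene, HSPA12A, rose with a log2 fold change of 0.96, a call lost with limma-voom.

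The HSP110 genes encode nucleotide exchange factors that let HSP70 release its client. HSPH1, the stress-inducible member, was at 20.1, 13.0, 14.1, 16.6 and 17.0 CPM in fresh libraries 1 to 5, at 73.9, 49.1, 45.1, 74.8 and 55.0 in the cultures and at 69.5, 53.0, 50.3, 80.9 and 59.2 in the cultures with vesicles. All 10 cultured libraries lay above all fresh ones. The rise was 3.69-fold, a log2 fold change of 1.88 ± 0.19 (adjusted p = 1.01e-06). HSPA4, the constitutive member, was at 162, 153, 157, 169.7 and 178 CPM in fresh libraries 1 to 5, at 216, 175, 206, 218 and 221 in the cultures and at 214, 200.0, 202, 217 and 218 in the cultures with vesicles. Only culture 2 fell within the fresh range, and the log2 fold change was 0.34 ± 0.10 (adjusted p = 0.00784). HSPA4L, a relative with high expression in testis, was at 14.4, 20.3, 21.0, 20.8 and 29.8 CPM in fresh libraries 1 to 5, at 33.0, 24.6, 16.1, 28.2 and 35.5 in the cultures and at 37.4, 21.1, 32.1, 28.7 and 26.9 in the cultures with vesicles. Fresh and culture values overlapped, and its log2 fold change of 0.37 ± 0.23 was not called (adjusted p = 0.18). Without culture 3, the lowest culture, it was 0.52 and called (adjusted p = 0.0353).

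Of 5 small heat shock genes tested, 2 rose and 3 were not called. HSPB8, which works with the co-chaperone BAG3 in the autophagy of damaged proteins, was at 6.36, 6.26, 4.14, 10.3 and 6.24 CPM in fresh libraries 1 to 5, at 51.0, 35.2, 49.9, 64.5 and 80.6 in the cultures and at 53.7, 38.3, 51.1, 75.8 and 41.8 in the cultures with vesicles. The lowest culture was more than 3 times the highest fresh library, fresh 4. The rise of 8.47-fold (log2 fold change 3.08 ± 0.28, adjusted p = 3.62e-07) was the largest among the 55 genes. CRYAB, alpha B-crystallin of lens and muscle, was at 11.3, 17.1, 13.6, 16.3 and 11.9 CPM in fresh libraries 1 to 5, at 84.2, 68.7, 68.2, 67.5 and 92.2 in the cultures and at 72.0, 63.6, 74.7, 72.6 and 64.6 in the cultures with vesicles. Here too fresh and cultured values did not overlap, with a rise of 5.42-fold (log2 fold change 2.44 ± 0.15, adjusted p = 9.23e-09). Both kept their calls in all 24 alternative analyses.

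HSPB1, or HSP27, which protects actin filaments, was at 88.2, 79.6, 66.6, 129 and 58.8 CPM in fresh libraries 1 to 5, at 85.0, 110.2, 75.4, 58.5 and 48.6 in the cultures and at 71.0, 86.2, 49.5, 56.4 and 42.1 in the cultures with vesicles. The ranges overlapped, the highest value being fresh 4. The log2 fold change was -0.16 ± 0.26 (adjusted p = 0.624), and 0.05 without fresh 4. HSPB6 and HSPB7, both known from muscle, were not called, with log2 fold changes of -0.32 and 0.62. Of 15 smooth muscle markers, 4 rose and 2 fell in culture, and they summed to 884 to 2219 CPM in fresh tissue and 1509 to 5305 CPM in culture. Their part in the values of CRYAB, HSPB8, HSPB6 and HSPB7 was not tested.

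**Figure D3:**
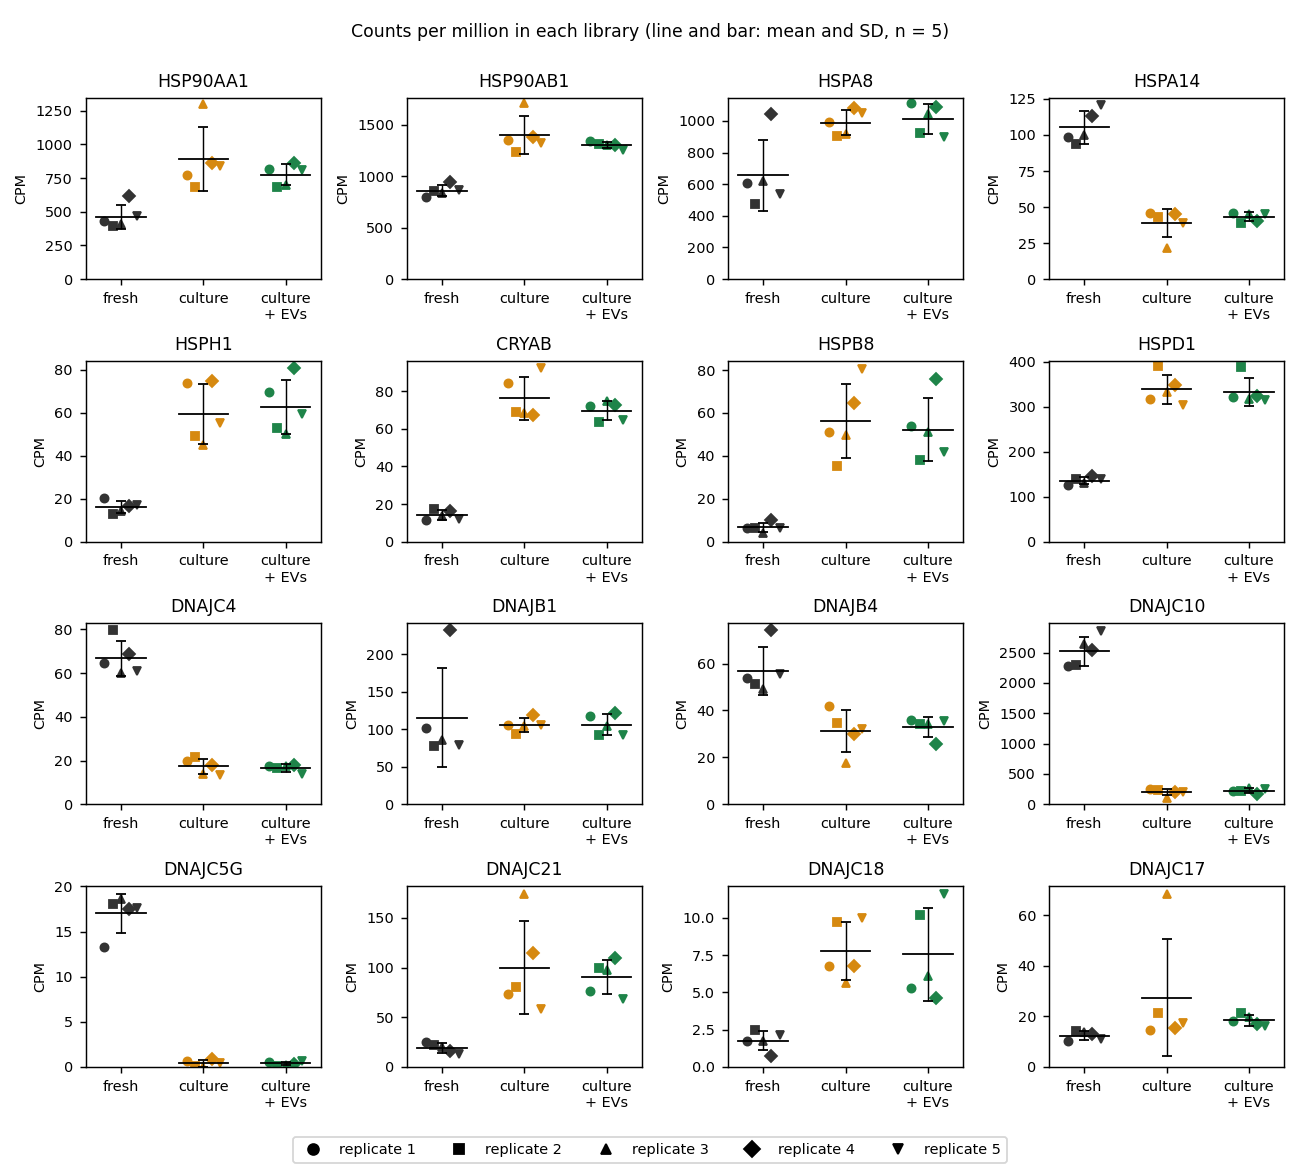
CPM of 16 of the genes in each library, with replicate numbers as symbols and the mean and SD of each group of 5 as a line and bar. HSPH1, CRYAB, HSPB8 and HSPD1 are higher and HSPA14, DNAJC4, DNAJC10 and DNAJC5G lower in all 10 cultured libraries, fresh 4 stands above the other fresh libraries for DNAJB1 and HSPA8, and culture 3 above the other cultures for DNAJC17 and DNAJC21.

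Among 9 tested genes of mitochondrial chaperones, 1 rose, 4 fell and 4 were not called. HSPE1 had no entry under that symbol and is not among them. HSPD1, the chaperonin HSP60, was at 126, 139, 129.8, 147 and 139 CPM in fresh libraries 1 to 5, at 319, 389.9, 333, 349 and 305 in the cultures and at 322, 389, 318, 324 and 316 in the cultures with vesicles. No cultured value reached down to the fresh values. It rose 2.49-fold (log2 fold change 1.32 ± 0.11, adjusted p = 1.27e-07), and culture 3, with its low share of mitochondrial counts, lay inside the range of the other cultures. HSPA9, the HSP70 of the mitochondrial matrix, was at 248, 323, 231, 289 and 274 CPM in fresh libraries 1 to 5, at 275, 302, 228, 319 and 303 in the cultures and at 291, 309, 271, 293 and 295 in the cultures with vesicles. All 3 groups overlapped, with a log2 fold change of 0.06 ± 0.12 (adjusted p = 0.671, 95% interval -0.19 to 0.32). DNAJC4, a J protein assigned here to mitochondria, was at 64.9, 79.6, 59.9, 68.9 and 60.8 CPM in fresh libraries 1 to 5, at 19.7, 21.8, 13.7, 17.9 and 13.6 in the cultures and at 17.7, 16.5, 17.7, 17.9 and 13.7 in the cultures with vesicles. The groups did not overlap, and it fell 3.86-fold (log2 fold change -1.95 ± 0.15, adjusted p = 1.04e-07).

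The other mitochondrial J proteins that were called all fell: DNAJC30 by 0.88, DNAJC11 by 0.31 and DNAJA3 by 0.27 on the log2 scale. The calls of DNAJA3 and DNAJC11 (adjusted p = 0.0383 and 0.0376) were lost when fresh 1, fresh 4, fresh 5, culture 2 or culture 5 was left out, and 1 of them was lost in several other fits with 1 library removed. DNAJC15, DNAJC19 and DNAJC28 were not called and had log2 fold changes of 0.36, -0.04 and -0.56. Without culture 3, DNAJC15 was at 0.53 and DNAJC28 at -0.35, both called (adjusted p = 0.00412 and 0.0347). DNAJC15 was also called with limma-voom, and DNAJC28 with DESeq2, limma-voom, RLE and upper-quartile scaling and without culture 4.

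Of the 9 tested DNAJA and DNAJB genes of the cytosol, nucleus and cilia, 1 rose, 2 fell and 6 were not called. DNAJB1, the main stress-inducible partner of HSP70, was at 102, 78.0, 85.3, 233 and 79.5 CPM in fresh libraries 1 to 5, at 105, 93.7, 104, 119.8 and 105 in the cultures and at 118, 92.3, 104, 122 and 93.0 in the cultures with vesicles. Fresh 4 was far above every other library, fresh 1 lay within the range of the cultures and the other 3 fresh libraries below it. With all libraries the log2 fold change was -0.13 ± 0.25 (adjusted p = 0.692). Without fresh 4 it turned to 0.30 (adjusted p = 0.0715), and without fresh 4 and culture 3 to 0.30 (adjusted p = 0.0491), so 1 library decides its sign.

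DNAJB4, a cytosolic relative of DNAJB1, was at 53.8, 51.1, 49.2, 74.4 and 55.4 CPM in fresh libraries 1 to 5, at 41.7, 34.7, 17.7, 29.8 and 32.1 in the cultures and at 35.9, 34.0, 34.2, 25.5 and 35.4 in the cultures with vesicles. Every culture value lay below every fresh value. Its log2 fold change was -0.86 ± 0.19 (adjusted p = 0.00153), and -0.74 without fresh 4. DNAJB6, which keeps glutamine-rich proteins from aggregating, rose. It was at 35.3, 35.4, 39.3, 42.7 and 43.9 CPM in fresh libraries 1 to 5, at 63.2, 67.9, 96.7, 83.3 and 76.4 in the cultures and at 67.6, 72.0, 73.2, 85.4 and 66.0 in the cultures with vesicles. The groups did not overlap, and the log2 fold change was 0.98 ± 0.13 (adjusted p = 1.57e-05). DNAJA1, a partner of HSC70 in the folding of steroid receptors, was at 106, 104, 115, 159 and 148 CPM in fresh libraries 1 to 5, at 176, 151, 119, 178 and 157 in the cultures and at 166, 161, 154, 188 and 155 in the cultures with vesicles. Fresh 4 and fresh 5 lay within the culture range. The log2 fold change of 0.31 ± 0.15 was not called (adjusted p = 0.0876), but was without culture 3 (adjusted p = 0.0141) and without fresh 4 (adjusted p = 0.0321).

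DNAJB13, a protein of the radial spokes of sperm flagella and motile cilia, was at 1.05, 1.16, 0.792, 0.981 and 0.618 CPM in fresh libraries 1 to 5, at 0.355, 0.686, 0.882, 0.560 and 0 in the cultures and at 0.785, 0.260, 0.445, 0.472 and 0.394 in the cultures with vesicles. It was low in all 3 groups, with 0 in culture 5, and its log2 fold change of -0.89 ± 0.58 was not called (adjusted p = 0.213). Of 8 tested markers of ciliated cells, 2 rose and 3 fell in culture, with sums of 104 to 158 CPM in fresh tissue and 50.9 to 70.2 CPM in culture. The other called gene of this group, DNAJA4, fell by 0.72 on the log2 scale and by 1.02 without culture 3. DNAJA2, DNAJB2 and DNAJB5 were not called, with log2 fold changes of 0.02, 0.53 and -0.20. DNAJB2 was called with the replicate number as a block and without fresh 2, fresh 3, culture 1 or culture 2.

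Of the 8 kept genes of the endoplasmic reticulum, all tested, 2 rose, 3 fell and 3 were not called. DNAJC10, or ERdj5, reduces disulfide bonds of misfolded secretory proteins so that they can be exported for degradation. It was at 2270.4, 2301, 2648, 2537 and 2848 CPM in fresh libraries 1 to 5, at 254, 241, 109, 204 and 200.2 in the cultures and at 223, 211, 267, 174 and 256 in the cultures with vesicles. Fresh values lay between 2270.4 and 2848 CPM and no cultured library exceeded 267. It fell 12.5-fold (log2 fold change -3.65 ± 0.22, adjusted p = 9.23e-09), and its log2 fold change was -3.48 without culture 3, the lowest culture. DNAJC10 alone took 0.231% to 0.282% of all counts in fresh tissue and 0.0102% to 0.0267% in culture. All 63 genes together took 0.656% to 0.774% in fresh tissue and 0.593% to 0.657% in culture. Without DNAJC10 the shares were lower in fresh tissue, 0.425% to 0.526% in fresh tissue and 0.569% to 0.642% in culture. The principal cell markers fell beside DNAJC10, and their part in its fall was not tested.

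DNAJC18, a J protein of the reticulum membrane, rose from low levels. It was at 1.71, 2.45, 1.76, 0.750 and 2.11 CPM in fresh libraries 1 to 5, at 6.74, 9.74, 5.66, 6.80 and 9.96 in the cultures and at 5.28, 10.2, 6.07, 4.64 and 11.6 in the cultures with vesicles. The ranges did not overlap, fresh 4 was the lowest library, and the rise was 4.40-fold (log2 fold change 2.14 ± 0.34, adjusted p = 8.25e-05). DNAJC16, a membrane J protein linked to autophagosome size, was at 26.8, 25.9, 25.6, 20.4 and 23.9 CPM in fresh libraries 1 to 5, at 20.2, 14.6, 14.6, 20.7 and 18.8 in the cultures and at 21.4, 19.3, 21.0, 22.2 and 24.5 in the cultures with vesicles. Fresh 4 lay inside the culture range and the other fresh libraries above it, with a log2 fold change of -0.46 ± 0.14 (adjusted p = 0.00993). HSPA13 fell by 0.79 and DNAJC1 rose by 0.89 on the log2 scale, and without culture 3 by 0.64 and 0.60. DNAJB12, DNAJB14 and DNAJC14 were not called, between -0.34 and 0.25, though DNAJC14 was without culture 2.

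The 4 genes of this compartment that the rule left out all fell in culture. HSPA5, the HSP70 of the reticulum also called BiP, was at 2273, 2146, 2140.3, 3204 and 2349 CPM in fresh tissue and at 689, 963, 1062, 659 and 977 in culture, a log2 fold change of -1.48 ± 0.18 (adjusted p = 8.41e-06). DNAJC3, DNAJB9 and DNAJB11, its J-domain partners, had log2 fold changes of -1.88, -1.46 and -1.07. All 4 were called in all 24 alternatives.

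Of the vesicle and endosome J proteins, 1 of 4 tested genes fell and 3 were not called. DNAJC5G, a cysteine string protein found mainly in testis, was at 13.3, 18.1, 18.6, 17.5 and 17.6 CPM in fresh libraries 1 to 5, at 0.630, 0.0914, 0, 0.880 and 0.422 in the cultures and at 0.571, 0.130, 0.243, 0.315 and 0.620 in the cultures with vesicles. It was present in all 5 fresh libraries and under 1 CPM in all 10 cultured ones. The log2 fold change was -5.34 ± 0.63 (adjusted p = 4.81e-06), a 40.5-fold fall estimated from very low culture counts. Sperm and late germ cell markers fell beside it, as given for HSPA2, and their part was not tested. DNAJC5, the cysteine string protein of secretory vesicles, was at 56.3, 52.6, 47.1, 43.8 and 47.6 CPM in fresh libraries 1 to 5, at 55.6, 43.8, 125, 55.7 and 54.6 in the cultures and at 54.7, 56.2, 56.2, 68.0 and 52.1 in the cultures with vesicles. Culture 3 stood alone above the rest. Its log2 fold change of 0.44 ± 0.23 was not called (adjusted p = 0.115), and was 0.09 without culture 3 and 0.56 and called without culture 2 (adjusted p = 0.044). DNAJC5 overlaps a protein-coding gene. DNAJC6 and DNAJC13 were not called, at -0.43 and 0.12. DNAJC13 was at 0.25 and called without culture 3 (adjusted p = 0.0131), and called with limma-voom.

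Among J proteins of the nucleus, ribosome and RNA, 3 of 5 tested genes rose and 2 were not called. DNAJC21, which helps recycle factors of the large ribosomal subunit, was at 24.8, 22.2, 19.6, 15.8 and 12.6 CPM in fresh libraries 1 to 5, at 73.1, 80.2, 174, 115 and 57.8 in the cultures and at 76.5, 99.5, 97.4, 110.1 and 68.7 in the cultures with vesicles. The groups did not overlap, culture 3 being the highest. It rose 5.25-fold (log2 fold change 2.39 ± 0.28, adjusted p = 5.14e-06), and its log2 fold change was 2.11 without culture 3. DNAJC17, a splicing-associated J protein whose span overlaps another protein-coding gene, was at 10.1, 14.2, 13.7, 12.9 and 11.1 CPM in fresh libraries 1 to 5, at 14.6, 21.5, 68.6, 15.3 and 17.2 in the cultures and at 18.2, 21.4, 19.7, 17.1 and 16.1 in the cultures with vesicles. All cultures were above all fresh libraries, but culture 3 was more than 3 times the next. The log2 fold change was 1.14 ± 0.36 (adjusted p = 0.0142) and only 0.47 without culture 3 (adjusted p = 0.0112).

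DNAJC8, another spliceosome-associated protein, was at 61.8, 69.4, 67.6, 58.2 and 58.4 CPM in fresh libraries 1 to 5, at 63.3, 86.2, 114, 67.9 and 67.6 in the cultures and at 64.2, 71.9, 64.3, 67.0 and 65.6 in the cultures with vesicles. Fresh and culture ranges overlapped. Its log2 fold change of 0.34 ± 0.15 was not called (adjusted p = 0.0618), was 0.18 without culture 3, and was called when culture 1, 4 or 5 was left out. DNAJC9, a histone chaperone, rose by 0.44 on the log2 scale, a call lost under upper-quartile scaling, and DNAJC2 was not called at 0.10.

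In the group of other DNAJC genes and HSPB11, 1 of 5 tested genes fell and 4 were not called. DNAJC24, a cofactor of diphthamide synthesis on elongation factor 2, was at 15.9, 18.1, 19.5, 18.1 and 22.2 CPM in fresh libraries 1 to 5, at 12.1, 13.3, 4.31, 12.9 and 10.4 in the cultures and at 12.7, 14.6, 11.7, 12.9 and 12.4 in the cultures with vesicles. The groups did not overlap and culture 3 was the lowest. The log2 fold change was -0.82 ± 0.23 (adjusted p = 0.00789), and -0.61 without culture 3. HSPB11, a subunit of the intraflagellar transport complex that bears a heat shock name, was at 3.20, 2.77, 2.16, 2.83 and 2.94 CPM in fresh libraries 1 to 5, at 5.55, 8.23, 1.82, 3.56 and 4.85 in the cultures and at 4.75, 7.21, 4.13, 2.52 and 5.69 in the cultures with vesicles. Culture 3 was below every fresh library and the other cultures above them. With all libraries the log2 fold change of 0.79 ± 0.35 was not called (adjusted p = 0.0698), but it was 1.00 and called without culture 3 (adjusted p = 0.00935). DNAJC12, which binds aromatic amino acid hydroxylases, was at 19.7, 26.7, 25.7, 20.3 and 23.4 CPM in fresh libraries 1 to 5, at 26.9, 24.2, 33.8, 41.6 and 16.4 in the cultures and at 23.4, 13.7, 31.0, 38.7 and 18.3 in the cultures with vesicles. The groups overlapped and the log2 fold change of 0.30 ± 0.27 was not called (adjusted p = 0.359).

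The 8 genes that were not tested had few counts, given here as sums over the 5 libraries of a group. HSPB3 had 86 counts in fresh tissue, 11 in culture and 13 with vesicles. DNAJB8 had 92, 4 and 6, and DNAJB3 had 49, 0 and 4. DNAJB7 had 21 in fresh tissue and 0 in both cultures, where a count of 0 allows up to 3. DNAJC5B had 22, 5 and 4. All 5 had more counts in fresh tissue, and DNAJB3, DNAJB7 and DNAJB8 are J proteins known from testis. HSPB2 went the other way, with 20 counts in fresh tissue, 42 in culture and 58 with vesicles. In the gene table HSPB2 lies next to CRYAB, the only pair of these genes that are direct neighbours. DNAJC22 had 0, 6 and 3, and HSPB9 had 0 counts in every library.

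Culture with vesicles was compared with culture to ask what caput vesicles add. None of the 55 chaperone genes was called by edgeR (0.0% of all genes were called), and none had an unadjusted p under 0.05, against 183 of all 18038 genes (1.01%). That share is below what a threshold of 0.05 gives without any effect, so this fit may give p-values that are too large. With the replicate number as a block, edgeR gave 0 of the 55 and 206 of all genes under 0.05 unadjusted, with 0 called. Limma-voom also gave 0 with an unadjusted p under 0.05, and DESeq2 gave 1, with 0 called by either. Log2 fold changes lay between -0.67 and 0.29, with a median size of 0.11, beside 0.16 for all genes. No gene had values that failed to overlap between these groups, against 0.0832% of all genes. For 48 of the 55 the 95% interval lay within 1 on the log2 scale in both directions, so changes of more than 2-fold lay outside it. For 20 of them it lay within 0.5. The 7 with wider intervals were HSPA12B, HSPB6, HSPB7, DNAJB13, DNAJC5G, DNAJC6 and DNAJC17.

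The genes with the smallest p for the vesicles were DNAJC16, DNAJC8, DNAJC17 and HSPA12B, each with an adjusted p of 1.0. DNAJC16 had a log2 fold change of 0.29 ± 0.14 (95% interval -0.01 to 0.58), with an unadjusted p of 0.0547 from edgeR. It was higher with vesicles in 5 of 5 same-numbered pairs, as were 2.79% of all genes. DNAJC8 was at -0.26 ± 0.15 (95% interval -0.57 to 0.05) and at -0.10 without culture 3. DNAJC17 was at -0.57 ± 0.36 (95% interval -1.32 to 0.19) and turned to 0.11 without culture 3. HSPA12B was at -0.67 ± 0.42 (95% interval -1.57 to 0.23) and lower with vesicles in 5 of 5 pairs, as was HSPB1, at -0.31 ± 0.26 (95% interval -0.86 to 0.24), and as were 2.59% of all genes.

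Genes that moved most in culture were not called for the vesicles. The 95% interval of the vesicle log2 fold change was -0.31 to 0.45 for HSPH1, -0.65 to 0.43 for HSPB8, -0.42 to 0.16 for CRYAB and -0.25 to 0.20 for HSPD1. For DNAJC10 it was -0.25 to 0.59, for DNAJC21 -0.71 to 0.42, for DNAJC18 -0.72 to 0.64 and for DNAJC4 -0.37 to 0.26. For DNAJC5G, with the largest fall, it was -1.46 to 1.15, which leaves changes of more than 2-fold inside it. For HSP90AA1 and HSPA8, which moved less in culture, it was -0.58 to 0.17 and -0.35 to 0.42. These intervals rest on the spread between these libraries and do not show that the groups are alike.

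Culture with vesicles was also set against fresh tissue, which shares its controls with the comparison of culture and fresh tissue, so the values are given side by side and are not separate evidence. In it 16 of the 55 genes rose and 10 fell (47.3% called, beside 52.9% of all genes, 27.4% higher and 25.5% lower), and 27 had groups that did not overlap (49.1%, beside 49.2% of all genes). Both comparisons called 23 genes in the same direction and none in opposite ones, while 24 were called in neither. This overlap was not counted over all genes, so it is not read as a feature of the chaperone genes. HSPH1 had log2 fold changes of 1.88 in culture and 1.95 with vesicles, HSPB8 of 3.08 and 2.97, and CRYAB of 2.44 and 2.31. DNAJC10 had -3.65 and -3.48, and DNAJC5G -5.34 and -5.49.

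In the comparison of culture with fresh tissue alone, 5 genes were called (DNAJA3, DNAJC11, DNAJC16, DNAJC17 and DNAJC24), and with vesicles alone 3 (HSPA12B, DNAJC15 and DNAJA1). The vesicle comparison itself called none of these 8, so they are not shown to differ between the cultures. An edgeR fit of only the vesicle and fresh libraries also called DNAJC24 (adjusted p = 0.00134), DNAJC17 (adjusted p = 0.00245), DNAJA3 and DNAJC11. It did not call DNAJC16. In that fit 35 of 55 chaperone genes were called (63.6%), beside 63.8% of all genes. HSPA12B was at -1.30 ± 0.42 against fresh tissue with vesicles (adjusted p = 0.0178), a call lost without fresh 1 (adjusted p = 0.0543). DNAJC15 was at 0.52 ± 0.20 (adjusted p = 0.0349), a call lost without fresh 1, fresh 3 or fresh 4 and without replicate 1, 2, 3 or 5 of the cultures with vesicles, and under upper-quartile scaling. DNAJA1 was at 0.38 ± 0.15 (adjusted p = 0.0377), a call lost without fresh 1, 2 or 3 and without replicate 1, 2 or 4 of the cultures with vesicles. It was also lost with DESeq2 (adjusted p = 0.0517), RLE scaling (0.0676) and upper-quartile scaling (0.122). With the replicate number as a block, HSPB1 (-0.49, adjusted p = 0.0482), HSPB11 (0.74, adjusted p = 0.0373) and DNAJC13 were called as well. Without culture 3, which is no part of this comparison but enters the shared estimate of the spread, 36 of 56 chaperone genes then tested were called (64.3%), beside 63.0% of all genes.

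Genes that regulate or assist these chaperones were counted from lists taken from textbook knowledge, by the same fit. The lists were chosen with earlier results of these data known. Their shares beside all genes are therefore description only, not separate evidence. Among 3 tested heat shock factors, HSF1 and HSF2 rose in culture and HSF4 was not called. HSF1 was at 58.6, 56.5, 58.7, 56.1 and 58.0 CPM in fresh tissue and at 65.1, 66.4, 87.9, 62.3 and 66.4 in culture, with groups that did not overlap and a log2 fold change of 0.27 ± 0.11 (adjusted p = 0.0419). That call held in 6 of 24 alternatives. HSF2 was at 10.4, 12.5, 12.5, 11.7 and 8.76 CPM in fresh tissue and at 19.2, 23.7, 7.01, 20.6 and 19.1 in culture, with culture 3 below the fresh range. Its log2 fold change was 0.68 ± 0.25 (adjusted p = 0.0288), called in 16 of 24. With vesicles against fresh tissue only HSF2 of the 3 heat shock factors was called, and it rose, while HSF1 was not called. The log2 fold changes of the 3 there ran from 0.05 to 0.83, with HSF1 at the median of 0.06. Among 13 HSP70 partners, 5 rose and 1 fell (38.5% and 7.69%, beside 28.7% and 25.6% of all genes). Their log2 fold changes ran from -0.76 to 1.14. BAG3, a nucleotide exchange factor that pairs with HSPB8, was at 19.5, 22.6, 20.2, 33.2 and 17.8 CPM in fresh tissue and at 43.7, 42.1, 62.1, 49.0 and 42.4 in culture (log2 fold change 1.08 ± 0.17, adjusted p = 7.55e-05), and fresh 4 was the highest fresh library. BAG1, of the same family, was at 27.6, 30.7, 26.5, 30.9 and 28.0 CPM in fresh tissue and at 40.0, 43.8, 118, 61.4 and 53.8 in culture (log2 fold change 1.14 ± 0.24, adjusted p = 0.00106), with culture 3 standing above the rest.

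Of 15 HSP90 partners, 9 rose and 2 fell (60.0% and 13.3%, beside 28.7% and 25.6% of all genes). Their log2 fold changes ran from -0.96 to 1.44. Their summed CPM overlapped between fresh tissue (median 1503.5, range 1434 to 1615) and culture (median 1389, range 1271 to 1997). AHSA1, which speeds the ATPase of HSP90, was at 51.7, 48.3, 48.9, 48.7 and 46.1 CPM in fresh tissue and at 89.2, 90.7, 157, 95.3 and 78.1 in culture (log2 fold change 1.06 ± 0.16, adjusted p = 4.65e-05). SUGT1, a client adaptor, had a log2 fold change of 0.82 ± 0.13 (adjusted p = 6.2e-05). Of 14 subunits of TRiC, the cytosolic chaperonin that folds actin and tubulin, and of prefoldin, which hands it clients, 11 rose and none fell. CCT5 was at 70.7, 71.6, 72.5, 88.8 and 82.1 CPM in fresh tissue and at 168, 194, 295, 207 and 206 in culture (log2 fold change 1.47 ± 0.14, adjusted p = 7.57e-07), and CCT4 had a log2 fold change of 1.29 ± 0.14 (adjusted p = 2.55e-06). The median log2 fold change was 0.45 for the HSP90 partners and 0.67 for TRiC and prefoldin, beside 0.04 for all genes. With vesicles against fresh tissue, 7 of the 15 HSP90 partners rose and 3 fell, and 8 of the 14 TRiC and prefoldin genes rose and 2 fell. None of the genes on these lists was called between the cultures.

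**Figure D4:**
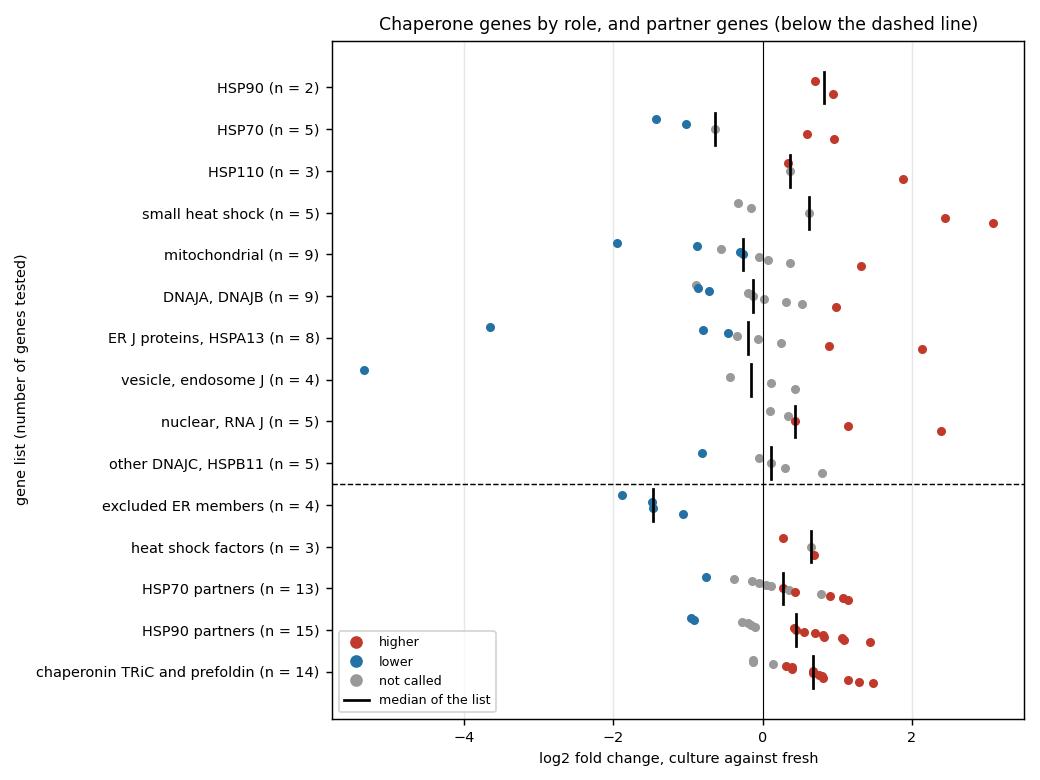
Log2 fold changes in culture against fresh tissue for the chaperone genes by role (above the dashed line) and for the left-out reticulum genes and partner lists (below), 1 point a gene, with red higher, blue lower, grey not called and a black bar at each list's median. The 4 left-out reticulum genes lie between -1.88 and -1.07, and the 14 TRiC and prefoldin genes between -0.13 and 1.47.

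The plot of lists shows that the HSP90 genes lay at or above 0.70, that the HSP70, mitochondrial and DNAJA and DNAJB groups spread to both sides of 0, and that the left-out reticulum genes all lay below it.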

How the data were processed

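RNA-seq libraries of the cat corpus epididymis (5 fresh, 5 culture, 5 culture with vesicles) were analysed from a table of unnormalized gene counts that the authors deposited. Per the labels' protocols, a Qiagen kit gave the RNA and the TruSeq Stranded mRNA kit the libraries. The tools named in the submitters' processing notes, with no role, are Bowtie2 2.3.4.1, HISAT2 2.1.0, StringTie 2.1.3b and Trimmomatic 0.38. The sources used here give no genome build, counting program or strand setting, so reads of overlapping genes may not have been told apart, and 23 of the 63 genes overlap another gene. All 38995 identifiers matched a RefSeq table of assembly F.catus_Fca126_mat1.0, used for names, overlaps and neighbours. Another 6 listed symbols (HSPA1A, HSPA1B, HSPA1L, HSPA6, HSPE1 and DNAJC25) had no entry under those names and are not analysed here.

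filterByExpr (minimum count 10, minimum total 15) kept 18038 genes. These were scaled by TMM and fitted with edgeR 4.0.16 (glmQLFit and glmQLFTest, R 4.3.3), all 15 libraries in 1 fit on group alone, which left 12 residual degrees of freedom. Tests were 2-sided with Benjamini-Hochberg adjustment over all tested genes and a threshold of 0.05. SE was taken as the size of the log2 fold change over the root of F, and the approximate 95% interval uses the t distribution of the fit. The procedure was tested on simulated data. Intervals rest on the spread between these libraries, and their number limits the precision.

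The genes, role lists, partner lists and markers were chosen with earlier results of these data known. Named with values in every library were 18 fixed genes, the 2 genes of each role with the smallest adjusted p in culture, the 4 largest rises and falls, and the 4 smallest p for the vesicles. Other members are given by counts and ranges, except that called members outside this rule were named after their values were seen. From the HSP70 partner, HSP90 partner and TRiC lists, the 2 genes with the smallest adjusted p in culture were named. All of these rose, so the partner genes that fell are not named. The remaining marker lists were lymphocytes (0 of 7 rose, 3 fell) and macrophages (3 of 8 rose, 0 fell). Alternatives were DESeq2 1.42.0, limma-voom (limma 3.58.1) with quality weights, RLE and upper-quartile scaling, no filter, 1 CPM in 5 libraries, only the groups compared, a replicate block and each library left out. Leaving out culture 3 and fresh 4 together was chosen after seeing the data.

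Same-numbered libraries deviated together in culture with vesicles and culture (correlations 0.181 to 0.602) and in culture with vesicles and fresh tissue (0.242 to 0.362), so the numbers were taken to pair these, from the data. The p-values, SE and intervals printed come from fits on group alone, which do not use this pairing, except where the replicate block is named. In culture and fresh tissue the correlations were 0.0327 to 0.344, with replicate 3 under 0.1.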

Additional observations from a re-analysis of the deposited data

Results flagged for a closer look

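For 11 of 93 groups of 5 libraries (31 genes in 3 groups), 1 library lay far from the other 4 by Dixon's ratio. The cut was its 95% critical value, where chance alone gives about 5% of groups. The genes share the same 15 libraries, and the share over all genes was not counted. The count is therefore not read as a feature of these genes. In fresh tissue, fresh 4 was at 1046 CPM for HSPA8 (the other 4 at 476 to 617), at 233 CPM for DNAJB1 (78.0 to 102) and at 74.4 CPM for DNAJB4 (49.2 to 55.4). Fresh 5 was at 12.2 CPM for HSPA2 (21.5 to 24.9) and fresh 1 at 13.3 CPM for DNAJC5G (17.5 to 18.6).

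Among the cultures, culture 3 was at 21.8 CPM for HSPA14 (the other 4 at 39.1 to 45.9), at 125 CPM for DNAJC5 (43.8 to 55.7) and at 68.6 CPM for DNAJC17 (14.6 to 21.5). With vesicles, replicate 2 was at 389 CPM for HSPD1 (316 to 324), and replicate 4 at 25.5 CPM for DNAJB4 (34.0 to 35.9) and at 68.0 CPM for DNAJC5 (52.1 to 56.2).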

How the results depend on the processing

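Counts of called genes kept within 1.5 times their values in all alternatives. With each library left out in turn, 26 to 35 of the 56 or 57 chaperone genes then tested were called in culture against fresh tissue. These were 46.4% to 62.5%, beside 49.4% to 59.9% of all genes. In culture with vesicles against fresh tissue 23 to 36 were called (41.1% to 64.3%, beside 48.2% to 63.0% of all genes), and 0 between the cultures. Upper-quartile scaling moved the median log2 fold change of all genes with vesicles against fresh tissue from 0.01 to -0.09. Under it, HSPA9 turned to -0.031 in culture and -0.0075 with vesicles, and DNAJC8 with vesicles to -0.029. Limma-voom gave 0.065 and 0.042 for DNAJB1 against fresh tissue and 0.19 for DNAJC17 between the cultures. Without fresh 4 and culture 3 together, DNAJB1 was 0.30 in culture and 0.30 with vesicles, HSPB1 0.048 in culture and DNAJC17 0.11 between the cultures. With 1 library left out, DNAJB1 ranged from -0.24 to 0.30 in culture and from -0.24 to 0.30 with vesicles (highest without fresh 4), and HSPB1 in culture from -0.33 to 0.047 (without fresh 4). DNAJC17 between the cultures ranged from -0.76 to 0.11 (without culture 3), and DNAJC12 with vesicles against fresh tissue from -0.12 (without replicate 4 of the vesicle group) to 0.25. None of these genes was called in these comparisons in the fit of all libraries, and the cause was not tested. Without a filter, HSPB3, DNAJB3, DNAJB7 and DNAJB8 entered the test and were called in culture against fresh tissue, the first also in several fits with 1 library left out, and HSPB3, DNAJB7 and DNAJB8 were called with vesicles.

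With the replicate block, 30 chaperone genes (54.5%, beside 57.9% of all genes) were called in culture against fresh tissue, with DNAJA1 (adjusted p = 0.0499) and DNAJB2 gained. With vesicles against fresh tissue 29 (52.7%, beside 57.0%) were called, and 0 between the cultures, with none lost. In culture and fresh tissue, 4 of 5 same-numbered libraries correlated best with their own number, at 0.198 to 0.344, and replicate 3 did not, at 0.0327. The pairing of these groups is a hint from the data. Low counts limit DNAJB13, DNAJC5G, DNAJC6 and HSPA12B.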
